A study of Mus musculus with 32 samples.

Results

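Wild type mouse photoreceptors of the late subjective day were set against those of the subjective night. The 12 libraries are all those of wild type (WT) mice at circadian time (CT) 10, 19 and 22: the 4 taken at CT10 form the late day group, and the 4 at CT19 with the 4 at CT22 form the night group. They are 12 of the 32 libraries of the study, which also sampled CT1 and a Per1-/-Per2Brdm1 mutant (KO) at the same 4 times. Circadian time is measured in hours after the start of the subjective day, so CT10 lies late in that day. Per the labels, WT and KO mice were males aged 6 weeks with the strain given as C57BL/6/J x 129 SvEvBrd. Eyes were frozen, photoreceptors were cut from each eye by laser capture, and mRNA was sequenced. Titles give an animal number and a left eye for each of the 12 libraries, except 1 CT10 library that is from a right eye. Some animal numbers recur between CT10, CT19 and CT22, and whether a recurring number marks the same animal could not be told. Each library was taken as 1 animal in the tests, on the assumption that numbers start anew at each time. A WT library of CT1 whose title names 2 animals entered the fit as 1 library. The light regime before sampling is not given in the sources used here.

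Photoreceptors are the light sensors of the retina: rods serve dim light and cones serve daylight. They carry a circadian clock in which the activators Arntl (BMAL1) and Clock switch on Per and Cry repressors, while REV-ERB and ROR receptors and the D-box factors Dbp and Nfil3 form further loops. Dopamine is a daytime signal of the retina and melatonin a night signal. Both act on photoreceptors through cyclic AMP (cAMP), whose level is known to be high at night in darkness. The old tips of the outer segments are shed and engulfed by the pigment epithelium around dawn, and per the labels eyes were collected before, at and after that peak.

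The libraries held 23833604 to 34582742 counts, so a level of 1 CPM (counts scaled to library size) rested on at least 23.8 counts. CPM values are TMM-scaled, and each list of 4 CT10 values gives replicates 1, 2, 4 and 5 in that order. The labelled tissue showed in the markers. The rod phototransduction list stood at a mean of 11.49 to 11.73 log2(CPM + 1) at CT10 and 11.33 to 11.60 at night. Markers of other tissues were present too and moved with the groups. The inner retina level (the mean over bipolar, amacrine and Müller glia lists) was 3.16 to 3.87 log2(CPM + 1) at CT10 and 3.65 to 4.45 at night. The lens level was 5.65 to 7.51 at CT10 and 1.48 to 6.08 at night, with replicate 6 of CT22 the highest night library. GC-rich against GC-poor transcripts stood at −0.23 to −0.11 on the log2 scale at CT10, below all 8 night libraries (−0.06 to 0.19). For this reason calls are also given from a fit with the inner retina and lens levels together as covariates. What these measures contribute to the difference between day and night cannot be told apart from the time itself.

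**Figure D1:**
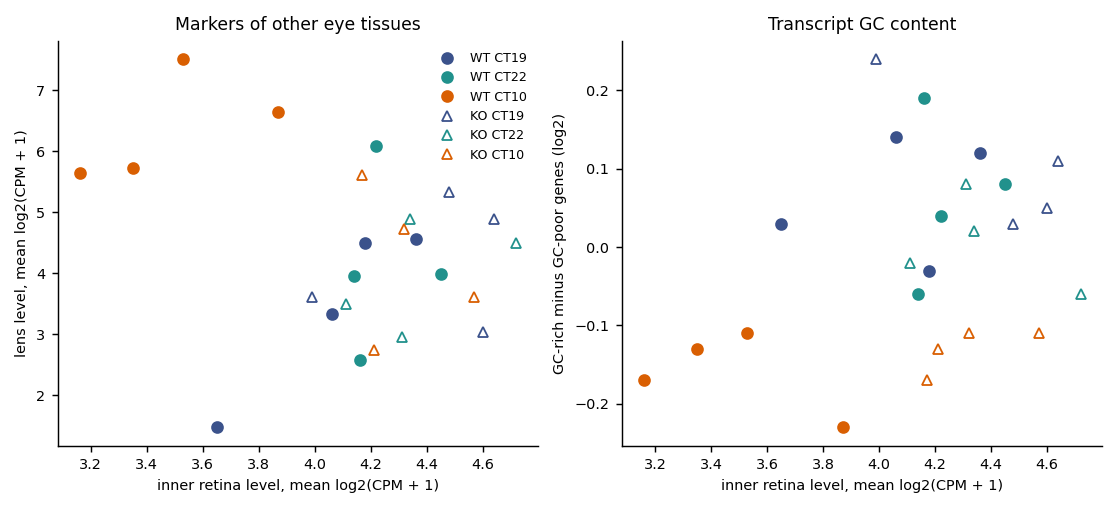
Each point is 1 library at CT10, CT19 or CT22 (filled circles WT, open triangles KO); the x axis is the inner retina level and the y axes are the lens level (left) and the difference between the GC-rich and GC-poor genes (right). Of the 4 WT CT10 libraries 3 lie below every other library in inner retina level and 1 lies above the lowest night library, and all 4 lie at the high end of the lens level, and CT10 libraries of both genotypes lie at −0.11 or below in GC.

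Between night and late day many transcripts differed in the WT photoreceptor libraries, which also carry RNA of other tissues. Transcripts of the dopamine receptor Drd4, of the nuclear receptor Nr4a1 with 7 other immediate early genes, and of Irf7, Per2 and Rcvrn fell. Transcripts of Acadm (fatty acid oxidation), Adcy1 (cAMP synthesis), and Rims2 and Syt1 (vesicle release) rose. Of 17871 tested genes 4084 were called (22.9%), 2065 higher at CT10 (11.6%) and 2019 lower (11.3%), by edgeR's quasi-likelihood test at a Benjamini-Hochberg adjusted p under 0.05. These shares are the background for every list count given below. The split depended on the scaling, since with upper quartile scaling it moved to 1730 higher and 2313 lower. Of the 4084 called genes 863 changed by 1 or more on the log2 scale, 292 of them higher and 571 lower. The median log2 fold change over all tested genes was −0.01. With both marker levels as covariates 649 genes were called (3.63%), 324 higher (1.81%) and 325 lower (1.82%), and 560 of them were called in the same direction without covariates. With the inner retina level alone 15.2% of tested genes were called, and with the lens level alone 15.1%. A set of 436 genes (268 higher, 168 lower) was called in the same direction with either covariate alone and with both. In 1177 genes all 4 CT10 libraries lay above all 8 night libraries (6.59%), and in 898 all lay below (5.02%). Among called genes the groups did not overlap in 1106 of the 2065 higher and 831 of the 2019 lower genes. Non-overlap in a called gene comes from the same values as its call.

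In dopamine and cAMP signalling the change with the smallest p concerned Drd4 (ENSMUSG00000025496, GRCm38 chromosome 7, 141292006 to 141296464, plus strand), the D4-type dopamine receptor of photoreceptors, which lowers cAMP. Drd4 stood at 366, 297, 315 and 339 CPM at CT10, against a lowest, median and highest value of 658, 741 and 869 CPM at night. Every late day library lay at about the same low level and the groups did not overlap. Its log2 fold change was −1.20 (SE 0.10, adjusted p = 2.18e-09), a 2.30-fold lower level, and −1.03 with both covariates (adjusted p = 0.000892). Adcy1, a calcium-stimulated adenylyl cyclase that makes cAMP, stood at 667, 790, 688 and 793 CPM at CT10 and at 310.3, 406 and 460.3 CPM (lowest, median, highest) at night. Thus the cyclase transcript was high when that of the receptor was low, with no overlap in either. Adcy1 rose by 0.89 on the log2 scale (SE 0.11, adjusted p = 1.02e-06). Pde8a, a phosphodiesterase that breaks down cAMP, stood at 124, 138, 143 and 107 CPM against 175, 195 and 218 CPM at night, again without overlap, and fell by 0.61 (SE 0.09, adjusted p = 1.46e-05). Akap5, which anchors protein kinase A at membranes, was a low transcript with 5.01, 4.05, 3.0 and 2.95 CPM at CT10 and 1.16, 1.57 and 1.92 CPM at night. It rose by 1.27 (SE 0.18, adjusted p = 1.46e-05). All 4 genes were called with both covariates as well.

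Of the 22 tested genes of the dopamine, melatonin and cAMP list, 2 rose (Adcy1 and Akap5), 10 fell and 10 were not called, with a median log2 fold change of −0.33 against −0.01 over all tested genes. The other lower members were Drd1 (−1.38) and Drd2 (−1.35), the dopamine receptors best known from other neurons, the cyclase Adcy8 (−2.02), the phosphodiesterases Pde4a (−0.89) and Pde4d (−0.71), and the kinase A subunits Prkar1b (−0.90), Prkar1a (−0.30) and Prkaca (−0.27). None of these 8 was called with both covariates. Amacrine and bipolar markers fell in the same comparison, and with the covariates the list's median was −0.07. In a bulk sample such as this, fewer cells of a type and less RNA per cell cannot be told apart.

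**Figure D2:**
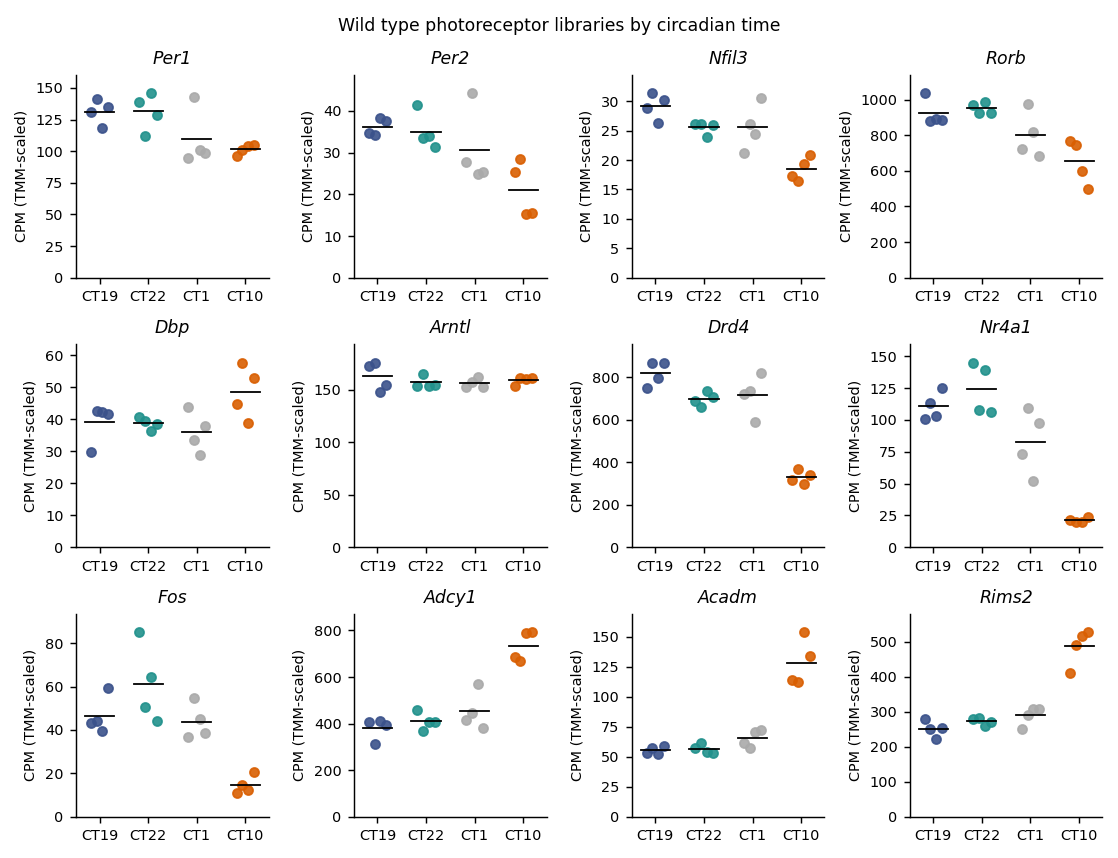
Each panel shows 1 gene in the 16 WT libraries, with TMM-scaled CPM on the y axis starting at 0, circadian time on the x axis in the order CT19, CT22, CT1 and CT10, a point per library and a bar at the group mean. Drd4, Nr4a1, Fos, Per1, Per2, Nfil3 and Rorb are lower at CT10 than in all night libraries, Adcy1, Acadm and Rims2 are higher, and Arntl overlaps.

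Immediate early genes, which are transcribed within minutes of calcium, cAMP or growth factor signals, were lower in the late day. Of 19 tested members 8 fell, 1 rose and 10 were not called, with a median of −0.46. Nr4a1 (ENSMUSG00000023034, chromosome 15, 101254269 to 101274795, plus strand), an orphan nuclear receptor, stood at 19.9, 19.6, 21.6 and 23.8 CPM at CT10 and at 101, 110.4 and 145 CPM (lowest, median, highest) at night. The 4 late day values were nearly equal and far below any night value. It was 5.52-fold lower, a log2 fold change of −2.46 (SE 0.23, adjusted p = 3.63e-08). Fos, a subunit of the AP-1 transcription factor, stood at 14.8, 12.2, 11.1 and 20.6 CPM against 39.6, 47.5 and 85.1 CPM at night and fell by 1.86 (SE 0.32, adjusted p = 0.000170). Sik1, a kinase that is induced by cAMP and restrains CREB coactivators, stood at 11.2, 6.49, 6.42 and 9.89 CPM against 23, 30.9 and 37.0 CPM and fell by 1.85 (SE 0.24). Neither gene had a night library as low as any late day library. The related receptor Nr4a3 was lower by a log2 fold change of −2.70 (SE 0.41), from a night median of 1.48 CPM to between 0.107 and 0.433 CPM. Dusp1, a phosphatase of MAP kinases, changed by −1.15, the AP-1 subunit Junb by −1.04, Ier2 by −1.01 and the AP-1 subunit Jund by −0.46. In all 8 lower genes the groups did not overlap, which held for 831 of the 2019 genes called lower over all tested genes. With both covariates 6 of them (Nr4a1, Nr4a3, Sik1, Dusp1, Junb and Ier2) were still called lower, while Fos (−1.53, adjusted p = 0.104) and Jund were not. The member that rose was Btg2, an antiproliferative gene, at 142 ± 8.53 CPM at CT10 (SD, n = 4) and 104 ± 12.8 CPM at night (n = 8), with a log2 fold change of 0.45 that was not called with both covariates. Junb shares exons with Prdx2 on the opposite strand and Dusp1 with Ergic1. Strand use in counting is not given in the sources used here, so both values are less certain.

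The promoter windows of Dusp1 and Btg2 are shown because they moved in opposite directions and both hold TGACGTCA, the palindromic cAMP response element, which is in capitals. Each runs 5′ to 3′ on the gene's strand from 250 bases before to 50 after the start, from RefSeq on GRCm38.p6, and both were chosen after the motif shares were known. They lie on the minus strand at chr17:26508423-26508722 for Dusp1 and chr1:134079106-134079405 for Btg2.
Dusp1: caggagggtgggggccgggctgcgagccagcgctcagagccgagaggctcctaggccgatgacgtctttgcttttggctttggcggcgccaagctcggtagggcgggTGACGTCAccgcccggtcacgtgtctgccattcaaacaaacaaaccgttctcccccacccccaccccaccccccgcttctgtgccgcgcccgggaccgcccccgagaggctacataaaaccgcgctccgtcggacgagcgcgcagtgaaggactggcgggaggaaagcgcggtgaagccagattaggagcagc
Btg2: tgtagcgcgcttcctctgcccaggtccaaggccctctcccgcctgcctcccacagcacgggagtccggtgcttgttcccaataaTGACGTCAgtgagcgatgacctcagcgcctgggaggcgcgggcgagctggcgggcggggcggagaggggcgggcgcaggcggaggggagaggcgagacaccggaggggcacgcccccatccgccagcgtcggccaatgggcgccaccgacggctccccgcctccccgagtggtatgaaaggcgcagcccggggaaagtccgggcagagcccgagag
The match is at bases 108 to 115 of the Dusp1 window and 85 to 92 of the Btg2 window. Windows were found for 14 of the 19 tested immediate early genes and for 7 of the 9 called, and these 2 were the called ones with a match. TGACGTCA, which reads the same on both strands, occurred in 5.17% of the 1488 lower genes with a window, in 2.79% of the 1543 higher genes and in 3.50% of all 11435 tested genes with one. CACGTG, the E-box of clock activators and also a palindrome, occurred in 14.5% of the higher genes, 11.4% of the lower genes and 11.2% of all. GC content differed between higher and lower genes, as given further on, and its part in these shares was not tested. The Crx-type site TAATCC, searched on both strands, occurred in 7.06%, 7.33% and 7.32% of the higher, lower and all tested genes.

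In the core clock Per1, Per2, Cry2, Rorb and 2 transcriptional repressors were lower in the late day, while Arntl was not called. Of 25 tested members 2 were called higher, among them Dbp, 7 lower (Per1, Per2, Cry2, Rorb, Nfil3, Bhlhe40 and Csnk1e) and 16 were not called, with a median of −0.07. Per2, the clock repressor (ENSMUSG00000055866, chromosome 1, 91415982 to 91459324, minus strand), stood at 28.4, 15.2, 25.3 and 15.4 CPM at CT10 and at 31.4, 34.5 and 41.5 CPM at night. Replicates 2 and 5 were the lowest and the other 2 lay closer to the night range, with no overlap. Per2 changed by −0.76 (SE 0.16, adjusted p = 0.000967). Per1, its paralogue (ENSMUSG00000020893, chromosome 11, 69095217 to 69109960, plus strand), stood at 101, 104, 96.5 and 105 CPM at CT10 and at 112, 133 and 146 CPM at night. The groups did not overlap, but the change of −0.37 (SE 0.13, adjusted p = 0.0385) lost its call when any of the 4 CT10 libraries was left out (adjusted p between 0.0696 and 0.101), and with 5 of the 8 night libraries left out in turn.

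Rorb, a nuclear receptor of the clock that also directs rod development, stood at 747, 601, 766 and 499 CPM against 878, 926 and 1037 CPM at night and changed by −0.52 (SE 0.11, adjusted p = 0.000756). Nfil3, a repressor at D-box elements, stood at 16.5, 19.4, 17.3 and 20.9 CPM against 24.0, 26.3 and 31.4 CPM and changed by −0.56 (SE 0.16, adjusted p = 0.0127). Neither gene overlapped between the groups. Cry2, the partner of the period proteins, stood at 61.3, 49.4, 59.4 and 59.8 CPM against 60.3, 76.1 and 83.3 CPM, where 1 late day value passed the lowest night value, and changed by −0.36 (SE 0.07, adjusted p = 0.000551). Bhlhe40, an E-box repressor, changed by −0.82 (SE 0.21) at a low level of 2.35 to 5.10 CPM at CT10, and Csnk1e, a kinase of the period proteins, by −0.33 (SE 0.07).

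In the other direction Dbp, an activator at the same D-box elements, stood at 57.7, 38.7, 44.8 and 53.0 CPM against 29.7, 40.0 and 42.7 CPM at night. Replicate 2 lay within the night range, and the log2 fold change of 0.32 (SE 0.11, adjusted p = 0.0290) lost its call without replicate 1 (0.23, adjusted p = 0.172) or replicate 5 of CT10, replicate 3 of CT19 or replicate 3 of CT22. Dbp also shares exons with Sphk2 on the opposite strand. Arntl stood at 161, 159.9, 154 and 161 CPM at CT10 and 148, 155 and 176 CPM at night, a log2 fold change of −0.01 (SE 0.05, adjusted p = 0.913). The REV-ERB genes Nr1d1 (−0.19) and Nr1d2 (0.07), Cry1 (0.01), Per3 (−0.05), Clock (0.15), Ciart (0.23) and Tef (0.05) were not called. Nr1d1 passed the threshold without replicate 5 of CT10 (−0.28, adjusted p = 0.0429) or replicate 4 of CT19 (−0.23, adjusted p = 0.0403). With both covariates none of the 25 members was called. The estimates then were −0.68 for Per2 (adjusted p = 0.134), −0.64 for Per1 (0.0576), −0.33 for Nfil3 and 0.44 for Dbp (0.0774).

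The windows of Nfil3 and Per1 are printed because they are the called clock genes whose window held an E-box, a D-box (TTATGTAA or TTACGTAA) or a ROR/REV-ERB element (TAGGTCA or TGGGTCA) on either strand. They lie at chr13:52980990-52981289 (minus strand) and chr11:69098699-69098998 (plus strand). Capitals mark the match, which is TAGGTCA read on the other strand in Nfil3 and CACGTG in Per1.
Nfil3: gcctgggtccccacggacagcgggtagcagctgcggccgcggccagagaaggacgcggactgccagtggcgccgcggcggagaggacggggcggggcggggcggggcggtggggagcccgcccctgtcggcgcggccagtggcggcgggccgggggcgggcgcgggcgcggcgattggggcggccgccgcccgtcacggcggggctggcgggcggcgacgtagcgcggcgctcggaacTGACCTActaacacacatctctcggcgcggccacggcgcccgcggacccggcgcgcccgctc
Per1: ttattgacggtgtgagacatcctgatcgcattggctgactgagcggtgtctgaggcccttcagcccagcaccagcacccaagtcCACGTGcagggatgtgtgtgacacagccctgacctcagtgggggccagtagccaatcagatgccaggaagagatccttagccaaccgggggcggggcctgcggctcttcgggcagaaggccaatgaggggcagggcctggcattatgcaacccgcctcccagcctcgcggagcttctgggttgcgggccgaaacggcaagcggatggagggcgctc
The match lies at bases 239 to 245 of the Nfil3 window and 85 to 90 of the Per1 window, which is 1 of 2 windows listed for Per1. Windows were found for 20 of the 25 clock genes, of which 6 were called. Among tested genes with a window the ROR/REV-ERB element occurred in 6.68% of the higher, 6.79% of the lower and 6.03% of all, and the D-box in 0.713%, 1.01% and 0.892%.

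Of 3 fatty acid oxidation genes that rose, Acadm rose most. Acadm, the medium-chain acyl-CoA dehydrogenase (ENSMUSG00000062908, chromosome 3, 153922357 to 153944632, minus strand), stood at 112, 154, 114 and 134 CPM at CT10 and at 52.3, 55.8 and 61.6 CPM at night. All late day libraries were far above a narrow night range, and the level was 2.29-fold higher (log2 fold change 1.20, SE 0.09, adjusted p = 2.18e-09; 0.76 with both covariates, adjusted p = 0.00307). Cpt1a, which loads fatty acids for entry into mitochondria, stood at 392, 513, 408 and 501 CPM against 260.3, 289 and 328 CPM and rose by 0.63 (SE 0.11, adjusted p = 8.77e-05) without overlap, but by 0.20 with both covariates (adjusted p = 0.547). Ppargc1a, a coactivator of mitochondrial genes, rose by 0.36. Hadh (−0.54), Acaa1a (−0.44) and Cpt1c (−1.06) fell, so that of 28 tested members 3 rose and 3 fell, with a median of 0.01. Over all tested genes 11.6% rose and 11.3% fell, close to the shares in this list. In fatty acid synthesis and elongation 3 of 25 rose, among them Elovl4, the elongase of very long chain fatty acids of outer segments (0.29, SE 0.09), and Agpat3 fell (−0.23). Elovl4 was not called without replicate 1 or 2 of CT10 (adjusted p = 0.0529 and 0.0750), nor Agpat3 without replicate 1 or 4 (0.127 and 0.108). In cholesterol synthesis 4 of 24 rose, led by Lss (0.33) and Hsd17b7 (0.56), and 3 fell, among them Pmvk (−0.52) and the regulator Srebf2 (−0.37).

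Glycolysis and lactate transport had more lower than higher members, with 8 of 25 lower, 1 higher and a median of −0.19. Eno2, the neuronal enolase, stood at 437, 419, 473 and 402 CPM at CT10 against 564, 594 and 623 CPM at night, and changed by −0.46 (SE 0.08, adjusted p = 9.44e-05; −0.65 with both covariates). It was the member called with the covariates too. Pgk1 (−0.40), Tpi1 (−0.40), Aldoa (−0.30) and the glucose transporters Slc2a1 (−0.26) and Slc2a3 (−0.60) were lower, and the lactate transporter Slc16a1 was higher (0.44, SE 0.08). Tpi1 was not called without replicate 2 of CT10 (−0.37, adjusted p = 0.0561). Of 65 nuclear genes of oxidative phosphorylation 5 fell, among them Atp5d (−0.45) and Sdhb (−0.34), and Ndufs1 rose (0.21). Both counts lie below the shares over all tested genes, 11.3% lower and 11.6% higher. None of 11 tested genes encoded by mitochondrial DNA was called, with log2 fold changes of 0.08 to 0.55 and a median of 0.27, and none of 77 cytosolic ribosomal protein genes was called (median −0.10).

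Among phototransduction genes, those of arrestins and guanylate cyclase activators stood higher and that of recoverin lower in the late day. Rcvrn, a calcium sensor of photoreceptors, stood at 1371, 1549, 1307 and 1381 CPM at CT10 and at 1877, 2457 and 2894 CPM at night. No late day library reached the lowest night value, and the change of −0.82 (SE 0.12, adjusted p = 2.09e-05) was also called with both covariates (−0.73, adjusted p = 0.0419). Sag, the rod arrestin that ends the light response, stood at 7102, 12938, 7445 and 9639 CPM against 4362, 6051 and 6294 CPM at night. Its late day libraries differed among themselves by more than the whole night range, and all were above it. Sag rose by 0.70 (SE 0.15, adjusted p = 0.00110). Guca1b (0.53), Guca1a (0.32), the catalytic phosphodiesterase subunit Pde6b (0.27) and the rod channel subunit Cnga1 (0.30) were higher and Gnb5 was lower (−0.17), which gave 5 higher and 2 lower of 21 rod genes, with a median of 0.08. Pde6b (0.24, adjusted p = 0.0510) and Cnga1 (0.26, adjusted p = 0.0661) were not called without replicate 2 of CT10. Of the rod genes Rcvrn alone was called with both covariates.

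Of 13 tested cone phototransduction genes 3 were higher and none lower, with a median of −0.04. Cngb3, a cone channel subunit, stood at 40.4, 45.2, 47.2 and 36.5 CPM against 21.7, 29.2 and 36.3 CPM at night, and rose by 0.57 (SE 0.11, adjusted p = 0.000349). Slc24a2, the cone calcium exchanger, rose by 0.83 (SE 0.21). Arr3, the cone arrestin, stood at 519, 545, 811 and 478 CPM against 229, 317 and 568 CPM, and its rise of 0.78 (SE 0.24, adjusted p = 0.0183) was not called without replicate 4 of CT10 (0.59, adjusted p = 0.113). None of the 3 was called with both covariates.

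The outer segment list had 5 of 29 members higher and 3 lower, with a median of 0.08. Among all tested genes 11.6% were higher and 11.3% lower, so the lower count is near its background. Nphp4, a protein of the ciliary transition zone, stood at 63.8, 68.5, 74.2 and 64.9 CPM at CT10 and at 99.0, 118 and 138 CPM at night. It fell by 0.81 (SE 0.12, adjusted p = 1.06e-05; −0.89 with both covariates, adjusted p = 0.00366), with no overlap. The retinol dehydrogenase Rdh8 (−0.29) and the disk protein gene Prcd (−0.55, which shares exons with Cygb on the opposite strand) also fell. Pcdh15 (0.73), Rbp3 (0.39) and the ciliary genes Cep290 (0.31), Ift88 (0.31) and Kif3a (0.24) rose, and Ift88 was not called without replicate 2 of CT10 (0.29, adjusted p = 0.0636). Among 16 photoreceptor transcription factors Mef2c rose (0.40, SE 0.07), and Mef2d (−0.43), Esrrb (−0.29), Tbx2 (−0.95) and Rorb fell. Esrrb was not called without replicate 1 or 5 of CT10 (adjusted p = 0.0540 and 0.0699). Mef2d stayed called with both covariates (−0.48, adjusted p = 0.0326).

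Of 32 tested genes that expose phosphatidylserine on outer segment tips, or bind and engulf them, 5 were called, where 22.9% of all tested genes were. The 2 higher members were the scramblase family member Ano10 (0.88, SE 0.16, between 5.04 and 6.91 CPM at CT10) and the flippase Atp9b (0.22). Atp9b missed the threshold when any CT10 library was left out (adjusted p of 0.0585 to 0.0892), or replicate 1 of CT19 or 1, 2 or 6 of CT22. The bridging ligand Gas6 (−0.28), its receptor Axl (−1.16) and the chemokine Cx3cl1 (−1.31, against −0.01 with both covariates) were lower. The median was −0.04, and none of the 5 was called with both covariates.

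At the ribbon synapse, where rods and cones release glutamate, 5 of 30 genes rose and 7 fell, with a median of −0.05. Rims2, the release site scaffold of photoreceptor ribbons (chromosome 15, 39198261 to 39684372, plus strand), stood at 491, 515, 411 and 527 CPM at CT10 against 221, 265 and 281 CPM at night. It rose 1.86-fold (log2 fold change 0.90, SE 0.08, adjusted p = 1.17e-08). Each late day library was far above the night range. The calcium sensor of release Syt1 (0.60, SE 0.08), the vesicle protein Sv2b (0.51) and the channel subunit Cacnb2 (0.31) rose as well. Rims2, Syt1 and Cacnb2 were called with both covariates. The lower genes were Rims1 (−0.82, between 3.25 and 4.09 CPM at CT10), Lrrtm4 (−0.97), Snap25 (−0.31), Cacna2d4 (−0.31), Stx3 (−0.29), Elfn1 (−0.29) and Cabp4 (−0.26), of which Cacna2d4 and Cabp4 were called with both covariates.

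More stress response genes fell than rose. Of 25 genes of the unfolded protein response 8 fell and 1 rose, with a median of −0.21. Xbp1, a transcription factor of that response, stood at 71.4, 60.1, 69.9 and 54.6 CPM against 88.2, 108 and 137 CPM at night, and changed by −0.79 (SE 0.13, adjusted p = 8.42e-05; −0.59 with both covariates, adjusted p = 0.0805). Atf4, a factor of the integrated stress response, stood at 253, 270.3, 263 and 263 CPM against 299, 360.1 and 397 CPM and changed by −0.41 (SE 0.08), and its targets Trib3 (−0.65) and Ddit3 (−0.40) were lower too. The groups did not overlap in any of these 4 genes. Dnajb9 rose (0.29), and it was the member called with both covariates. Of 28 chaperone genes 7 fell, among them Hspa8 (−0.60), Ahsa2 (−0.50), Dnajb5 (−0.39) and Hsp90aa1 (−0.35), and the lens-expressed Hspb1 rose (2.54). Hsp90aa1 was not called without replicate 4 of CT10 (−0.32, adjusted p = 0.0565). None of 8 cold-inducible genes was called. In the autophagy list 8 of 32 rose and 4 fell. The genes that fell include 3 of the ubiquitin-like proteins that coat autophagosomes: Map1lc3a (−0.80, SE 0.14), Gabarap (−0.52, SE 0.11) and Gabarapl1 (−0.49, SE 0.11), with the lysosomal regulator Tfeb (−0.64). The genes that rose include Pik3c3 (0.43), Atg7 (0.41), Atg14 (0.24) and Lamp1 (0.29), and the list's median was −0.03.

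Among 16 cell cycle genes linked to the clock, Ccnd2 was called higher and Chek2, Gadd45g and Ccnd3 lower. Ccnd2 lost its call without replicate 5 of CT10 (0.67 in place of 1.22, adjusted p = 0.307), and also without replicate 1 of CT10, 1 or 4 of CT19, or 2 or 3 of CT22. The call of Ccnd3 was lost without replicate 2 of CT10 (−0.31, adjusted p = 0.0697). Of 12 glucocorticoid targets Fkbp5, a chaperone of the glucocorticoid receptor, was called higher (0.30) and Per1 lower. Fkbp5 was not called without replicate 5 of CT10 (0.19, adjusted p = 0.222), nor without replicate 4 of CT10, 4 of CT19 or 3 of CT22.

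**Figure D3:**
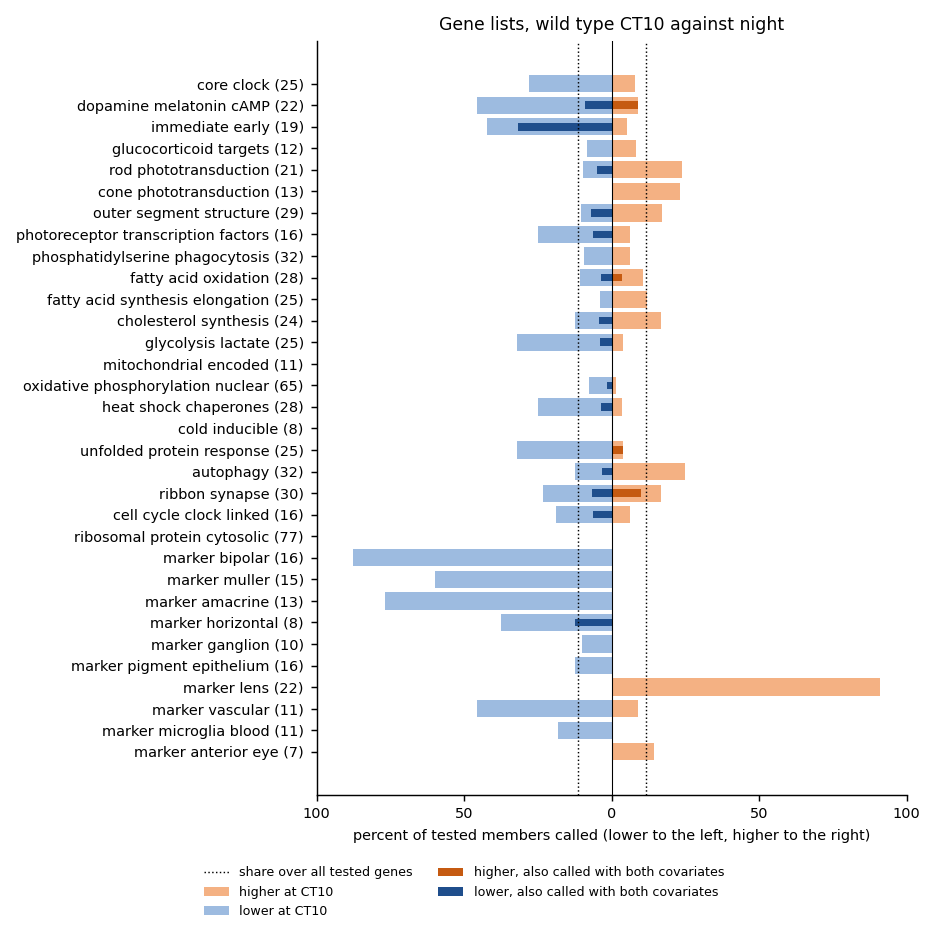
Percent of the tested members of each list (their number in brackets) that were called higher (right, orange) or lower (left, blue) at CT10 in WT; the inner dark bars are members also called with the inner retina and lens covariates, and dotted lines mark 11.3% lower and 11.6% higher, the shares over all tested genes. Immediate early genes keep 6 of 8 lower calls with the covariates. The bipolar, amacrine, Müller glia and lens lists define the covariates, so their dark bars carry no information.

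Outside the lists, genes with the smallest p-values, and those with the largest changes among genes called in every covariate setting, were of varied function. Irf7, a master factor of the interferon response (ENSMUSG00000025498, chromosome 7, 141262706 to 141266481, minus strand, near Drd4), stood at 36.0, 24.4, 25 and 24.0 CPM at CT10 against 122, 154 and 170 CPM at night. It was 5.58-fold lower (log2 fold change −2.48, SE 0.22, adjusted p = 1.93e-08; −2.21 with both covariates, adjusted p = 0.00130), and it shares exons with Phrf1 on the opposite strand. Tpbgl, a membrane protein related to trophoblast glycoprotein, changed by −2.76 (SE 0.36), with 0.553 to 0.821 CPM in the late day and 2.63 to 5.95 CPM at night. It shares exons with Gm10605.

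Pde10a, a phosphodiesterase of both cAMP and cGMP, stood at 3.56, 4.11, 2.86 and 3.9 CPM against 9.20, 16.3 and 28.6 CPM and changed by −2.20 (SE 0.25, adjusted p = 5.77e-07). Lgr5, an R-spondin receptor of Wnt signalling, changed by −1.50 (SE 0.16), and Ptprn, a protein of dense core vesicles, by −1.61 (SE 0.27). E2f3, a cell cycle transcription factor, stood at 23.7, 21.9, 20.5 and 21.4 CPM against 37.4, 44.8 and 54.5 CPM and changed by −1.03 (SE 0.10). The co-chaperone Dnajb2 stood at 89.1, 92.9, 96.0 and 90.0 CPM against 148, 167 and 178 CPM and changed by −0.84 (SE 0.07, adjusted p = 5.51e-09). In these 5 genes no late day value reached a night value.

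In the other direction Pdzph1, a PDZ domain protein, stood at 502, 676, 455 and 647 CPM against 203, 215 and 222 CPM and rose by 1.41 (SE 0.12, adjusted p = 6.37e-09). Glmn, a regulator of cullin ligases, stood at 150.2, 194, 133 and 132 CPM against 44.0, 47.6 and 55.9 CPM and rose 3.08-fold (1.62, SE 0.15, adjusted p = 2.40e-08), though it shares exons with 1700028K03Rik and Rpap2. Col19a1, a basement membrane zone collagen, stood at 17.6, 20.7, 18.6 and 15.6 CPM against 3.33, 5.11 and 6.42 CPM and rose by 1.86 (SE 0.22, adjusted p = 8.62e-07). All 12 late day values of these 3 genes exceeded every night value of the same gene. Hdac9, a class IIa histone deacetylase, rose by 1.24 (SE 0.12), the condensin subunit Smc2 by 1.23 (SE 0.13), the termination factor Ttf2 by 1.32 (SE 0.16), and Pdcd4, an inhibitor of translation, by 0.65 (SE 0.07).

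Several marker lists of other ocular cells moved in the same comparison, where 11.3% of all tested genes were lower. Of 16 bipolar cell genes 14 were lower (median −0.97), of 13 amacrine cell genes 10 (median −0.88) and of 15 Müller glia genes 9 (median −0.66). Of 8 horizontal cell genes 3 were lower and of 11 vascular genes 5. For pigment epithelium (2 of 16 lower), ganglion cells (1 of 10) and microglia with blood (2 of 11) the counts lay closer to the share over all genes. Their medians of −0.61, −0.49 and −0.71 still lay below the −0.01 over all tested genes. The vascular list also held 1 higher gene, Acta2, a smooth muscle actin (2.64, SE 0.59). Grm6, the glutamate receptor of ON bipolar cells, stood at 18.1, 5.04, 8.99 and 7.34 CPM against 21.4, 36.5 and 53.1 CPM at night (−1.83, SE 0.32). The counted range for Grm6 includes exons shared with Gm12660 on the opposite strand. Lens genes went the other way, with 20 of 22 higher and a median of 2.44, and they lead the genes with the highest fold changes, such as the connexin gene Gja3 (2.74, SE 0.74). Crygs, a lens crystallin, stood at 417, 185, 249.6 and 701 CPM in the late day and at 4.62, 58.6 and 269.6 CPM at night. Its groups overlapped through replicate 6 of CT22. The change of 2.43 (SE 0.73, adjusted p = 0.0179) missed the threshold without replicate 5 of CT10 (1.98, adjusted p = 0.0835).

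The higher and lower genes also differed in composition. Median transcript GC content was 45.6% in higher genes, 53.3% in lower genes and 49.2% over all tested genes. Across deciles of GC content the median log2 fold change ran from 0.15 in the poorest to −0.22 in the richest, and in KO it ran from 0.14 to −0.16. When the trend with GC was removed in each library, an alternative added after the data were seen, 3463 genes were called (1771 higher, 9.91%, and 1692 lower, 9.47%) and 2871 of them were called in the same direction before. Drd4, Acadm, Nr4a1, Adcy1, Rims2, Rcvrn, Per2, Rorb, Nfil3 and Cry2 were still called, while Per1 (−0.17, adjusted p = 0.340) was not. Of the other list members named above as called, those that also missed the threshold in that setting were Jund, Prkaca, Cnga1, Gnb5, Prcd, Rdh8, Ift88, Cep290, Kif3a, Esrrb, Gas6, Ppargc1a, Elovl4, Agpat3, Srebf2, Aldoa, Slc2a1, Ndufs1, Dnajb9, Cacnb2, Cacna2d4, Elfn1 and Ccnd3. With both marker covariates added to that correction, 298 genes were called (1.67%).

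**Figure D4:**
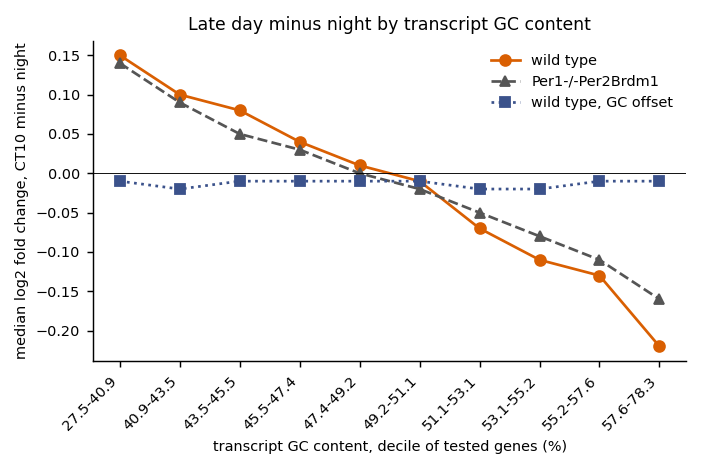
Median log2 fold change of CT10 minus night (y axis) in 10 equal groups of tested genes ordered by transcript GC content (x axis, bounds in percent), for WT, for KO and for WT after the GC trend was removed per library. WT falls from 0.15 to −0.22 and KO from 0.14 to −0.16, and the corrected WT values lie between −0.02 and −0.01.

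CT10 was also set against each night time alone. Against CT19 alone 2880 genes were called (16.1%), 1492 higher (8.35%) and 1388 lower (7.77%), which turned to 1306 and 1554 with upper quartile scaling. Against CT22 alone 3023 were called (16.9%), 1383 higher (7.74%) and 1640 lower (9.18%), a split that moved to 1036 and 1913 with that scaling. These comparisons share the CT10 libraries. Drd4 was lower by a log2 fold change of −1.32 against CT19 (820.2 ± 58.2 CPM, SD, n = 4) and −1.08 against CT22 (697 ± 31.7 CPM). Acadm was higher by 1.21 and 1.18, Nr4a1 changed by −2.38 and −2.55, and Per2 by −0.78 and −0.74. Per1 was not called against either night time alone (adjusted p = 0.0868 and 0.0822). Between CT22 and CT19 edgeR called 0 of 17871 genes (0%), with 1213 at an unadjusted p under 0.05, which is 6.79%, and a smallest adjusted p of 0.13. DESeq2 called 2 and limma voom 0.

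At CT1, early in the subjective day, the called genes lay on median between night and late day. With the night mean set at 0 and the CT10 mean at 1, the median position of CT1 was 0.31 over the genes called higher and 0.32 over those called lower, values that share the night and CT10 libraries with the calls. Acadm stood at 57.2 to 72.6 CPM at CT1, overlapping its night range, and Drd4 at 589.5 to 821 CPM, within or just below it. Nr4a1 stood at 51.7 to 109 CPM, all above the late day values. The lens level at CT1 was 6.06 to 8.0, as high as at CT10.

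In the KO, which carries mutated Per1 and Per2, the same comparison of 4 CT10 with 8 night libraries gave 0 called genes (0%) with edgeR. At an unadjusted p under 0.05 there were 2027 (11.3%), the smallest adjusted p was 0.067, and DESeq2 called 53 and limma voom 145. Whether WT differed from KO was tested directly: for 818 genes (4.58%) the late day minus night difference itself differed between the genotypes, 454 with a higher (2.54%) and 364 with a lower (2.04%) WT value. With upper quartile scaling this split turned to 352 and 421. Marker levels differed as well, since the inner retina level in KO was 4.17 to 4.57 at CT10 and 3.99 to 4.72 at night, and the lens level was 2.74 to 5.61 and 2.96 to 5.33. With both covariates the genotype difference was called for 64 genes, 21 with a higher and 43 with a lower WT value.

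Drd4 in KO ranged over 433 to 665 CPM at CT10 and 607 to 751 CPM at night, a log2 change of −0.23, and the WT change exceeded it by −0.97 (adjusted p = 3.87e-05). Acadm changed by 0.05 in KO (59.4 to 76.3 CPM at CT10, 56.8 to 83.7 at night), a difference between the genotypes of 1.15 (adjusted p = 1.48e-05). Nr4a1 ranged over 44.2 to 79.2 CPM at CT10 and 40.2 to 112 CPM at night in KO, and the difference was −2.30 (adjusted p = 3.87e-05). In each of these the KO groups overlapped. The genotype difference was also called for Adcy1 (0.81), Rims2 (0.76), Rcvrn (−0.81), Irf7 (−2.13), Pdzph1 (1.53) and, in the clock, for Rorb (−0.74) and Per2 (−0.79). It was not called for Per1 (−0.12), Nfil3 (−0.25), Cry2 (−0.29), Dbp (0.48), Sag (0.71) or Arr3 (1.05). In the libraries labelled KO, Per1 was not lower but higher than in WT, at 174 to 203 CPM at CT10 and 169.9 to 323 CPM at night. Per2 ranged from 168 to 267 CPM there, also above WT. Counts summed over a gene include exons outside a mutated part, so neither level checks the genotype. Over the 4084 genes called in WT, 69.7% had a fold change of the same sign in KO, against 58.5% of all tested genes. The median change in KO was 0.06 for genes higher in WT (0.42 in WT) and −0.10 for genes lower in WT (−0.69 in WT).

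**Figure D5:**
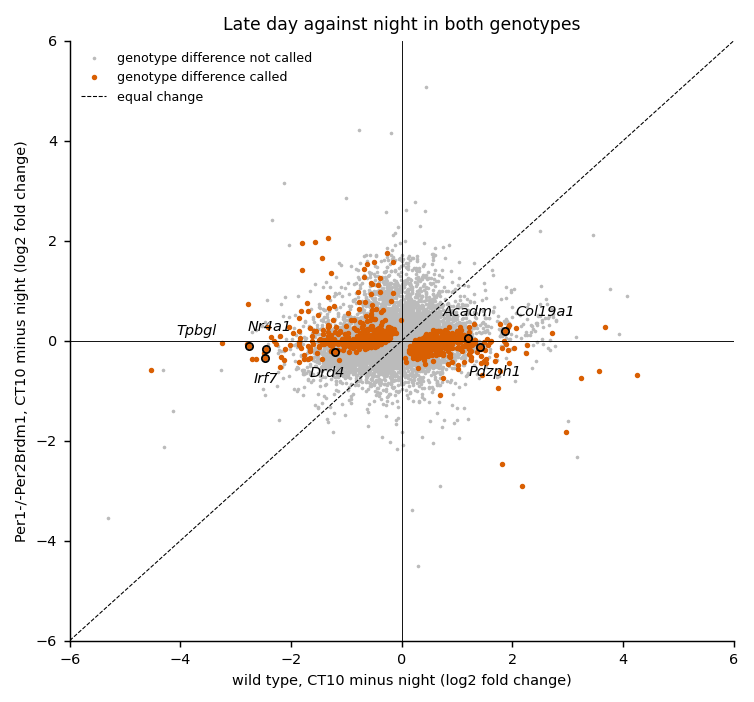
Log2 fold change of CT10 minus night in WT (x axis) and in KO (y axis) for the 17871 tested genes; orange points are the 818 genes whose change differed between the genotypes, the dashed line is equal change, and circled genes are named. The named genes lie far from 0 on the x axis and within 0.35 of 0 on the y axis.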

How the data were processed

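The authors deposited 1 table of raw counts with 54232 Ensembl genes and 32 libraries. The submitters' processing notes name HTSeq 0.11, HISAT2 2.1.0, Trimmomatic 0.32 and Cufflinks with the build GRCm38.p6. Neither the strand setting nor the annotation release is given in the sources used here. From the counts, R 4.3.3 with edgeR 4.0.16 kept 17871 genes (filterByExpr, minimum count 10, minimum total 15), scaled libraries by TMM and fitted all 32 in 1 robust quasi-likelihood model with 8 group means. The main contrast was WT CT10 minus the mean of WT CT19 and CT22. P-values were adjusted by Benjamini-Hochberg over the tested genes, and a gene was called under 0.05. Unless another tool is named, an adjusted p is from this model, and a mean ± SD is over libraries.

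No library pair within a WT group matched within sampling noise (chi-square divided by its degrees of freedom, 16.2 to 44.5). Counts for this comparison were simulated over 17612 genes, of which 200 were changed. Of changes of 0.5 on the log2 scale 63% were called, of changes of 1 89%, and 6 calls were false. The simulated counts followed the spread that the model had fitted, and the changed genes had an average log2 CPM of at least 1. Many more genes were called in the data (4084), so these figures do not give recovery or false calls for the data. The number of false calls when inner retina, lens or GC levels differ between late day and night was not tested. Alternatives used DESeq2 1.42.0 and limma 3.58.1. Gene names came from GENCODE for 99.9% of identifiers.

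The groups, gene lists and comparisons were chosen with earlier results of these data known. Named by rule are all core clock genes, the 10 highest, 10 lowest and 10 smallest p among called genes, the 10 highest and 10 lowest among those called in all covariate settings, the 5 smallest p of the genotype difference, and up to 5 members with the smallest p per list. Outside lists an average log2 CPM of at least 1 was required. Only part of the genes so selected is described, some are not reported here, and further called list members are named to fill the counts, chosen after their values were seen.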

Additional observations from a re-analysis of the deposited data

Results flagged for a closer look

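For 50 genes a library was picked out by its gap to the nearest library of its group, taken as a share of the group's range. It was picked when that share was above Dixon's 95% critical value for the group's size. This happened in 5 of 104 groups, and chance gives about 1 in 20. Among the 4 WT libraries of CT10, replicate 2 was low for Cry2 (49.4 CPM), replicate 4 was low for Arntl (154 CPM), and replicate 1 was high for Irf7 (36.0 CPM) and for Pdcd4 (56.3 CPM). Among the 8 night libraries, replicate 6 of CT22 was high for the lens gene Crygs (269.6 CPM), and it also had the highest lens level of that group, 6.08.

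The late day minus night difference of 33 of the 50 genes differed between WT and KO by edgeR's test of that difference. It is given here as WT minus KO on the log2 scale. Over all tested genes the share was 4.58%. Genes described here were picked in part for small p-values in these comparisons, so the 2 shares cannot be compared. For clock genes it was −0.79 for Per2 and −0.74 for Rorb. In dopamine and cAMP signalling it was −0.97 for Drd4, 0.81 for Adcy1, 1.34 for Akap5 and −0.81 for Pde8a, and −1.67 for Pde10a. For immediate early genes it was −2.30 for Nr4a1, −2.34 for Nr4a3, −1.43 for Sik1, −1.76 for Fos, −0.94 for Junb and −0.96 for Dusp1. For photoreceptor, release and metabolic genes it was −0.81 for Rcvrn, −0.83 for Nphp4, 0.76 for Rims2, 1.15 for Acadm and 0.76 for Cpt1a. Stress and autophagy genes gave −0.82 for Xbp1 and −0.49 for Gabarap. The remaining values were −2.13 for Irf7, 1.53 for Pdzph1, −0.77 for Dnajb2, 1.31 for Hdac9, 1.62 for Glmn, 1.65 for Col19a1, −1.52 for Lgr5, −1.54 for Ptprn, −2.67 for Tpbgl, −1.30 for Dip2b, −1.17 for E2f3, 0.78 for Pdcd4 and −1.88 for the bipolar cell gene Grm6. These values are from the fit without covariates. With both marker levels as covariates the genotype difference was called for 64 genes, against 818 without them. Which of the genes listed here were among the 64 is not reported here.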

How the results depend on the processing

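The count of 4084 genes kept within 1.5 times of its value with RLE size factors, upper quartile scaling, no low count filter, a minimum count of 50, DESeq2 (4507), limma voom with sample weights (5057), the GC offset, blocks of library numbers and fits on fewer libraries. The inner retina covariate gave 2719 (1772 against CT22 alone), and the lens covariate gave 2693 (1656 against CT19 alone, 438 for the genotype difference). Both together gave 649, 602 against CT19, 442 against CT22 and 64 for the genotype difference, and with the GC offset added 298, 278, 162 and 78. Both GC settings were chosen after seeing the data. The marker levels differ between the groups, so covariates also remove part of what differs between times. The genotype difference, 818 genes, gave 498 without a low count filter, 1338 with DESeq2 and 1818 with limma voom. The comparison within KO, 0 genes, gave 1 without the filter, 53 with DESeq2, 145 with limma voom, 4 in the 16 libraries of KO and 2 in its 12 libraries, and CT22 against CT19 gave 2 with DESeq2.

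Leaving out each library in turn gave 2733 to 4173 genes in the pooled comparison, 1874 to 2834 against CT19 and 2000 to 2711 against CT22, with all 3 lowest counts without replicate 2 of WT CT10. It gave 0 to 0 between CT22 and CT19, 0 to 2 in KO, and 456 to 929 for the genotype difference. The last was 456 without replicate 2 and 487 without replicate 4 of KO CT10, and 517 without replicate 2 and 538 without replicate 5 of WT CT10.

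Same-numbered libraries of different times showed no more shared deviation (correlations of −0.31 to 0.21 over 8 pairs) than other pairs (−0.25 to 0.23 over 40 pairs). So few pairs cannot show whether equal numbers mark related libraries. A replicate block gave 3273 genes in the pooled comparison, 1939 against CT22, 1 in KO and 526 for the genotype difference.

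Of 139 named genes, 62 kept their direction and side of the threshold with both covariates, and 139 did so with DESeq2. Directions reversed for Bfsp2 with the lens covariate (−0.18), with both (−1.70) and with the GC offset added (−1.49), for Cryge with the lens covariate (−0.20), and for Crygs with both (−0.03) and with the GC offset added (−0.01). With the GC offset and both covariates Cx3cl1 (0.17), Tbx2 (0.20), Srebf2 (0.00) and Gadd45g (0.11) reversed too. None of these was called there. Bfsp2, Cryge and Crygs belong to the lens list that defines the lens covariate, so their reversals carry no information. For the other genes the cause was not tested. Transcripts near 1 CPM rest on few counts, among them those of Nr4a3, Tpbgl and, at night, Akap5.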
